A study of Macaca mulatta with 81 samples.

Results

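Type I interferon stimulated genes are the genes that cells switch on when interferon alpha or beta binds its receptor. Here 39 of them were listed by symbol, from antiviral effectors to sensors of viral RNA and the transcription factors of the pathway. A gene was measured where the array's gene table gave it at least 1 probe set of its own, and the probe set with the highest mean over all 81 arrays stood for it. In this way 30 of the 39 were measured, among 14132 genes in all, and all 30 passed the filter on dim genes. IFI6, IFI44L, IFIT5, RSAD2, HERC5, EIF2AK2, USP18, SAMD9 and IRF9 were not analysed here. DDX58 is carried in the gene table as RIGI.

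RNA came from blood T cells of rhesus macaques, purified by flow cytometry for CD3, and was labelled and hybridised to Affymetrix arrays. There were 47 arrays from 27 animals after hematopoietic cell transplant (HCT) and 34 arrays from healthy, untransplanted animals (Healthy.Control), 50 animals in all. Allogeneic recipients without prophylaxis against graft-versus-host disease gave 4 final arrays (NoRx.F). Siro, taken to be the mTOR inhibitor sirolimus, was given alone (Siro.F, n = 4). Tac.Mtx, taken to be tacrolimus with methotrexate, was sampled at day 14, day 30 and finally (Tac.Mtx.D14, n = 3; Tac.Mtx.D30, n = 2; Tac.Mtx.F, n = 3). Bela, taken to be belatacept, which binds the ligands of CD28, was given alone (Bela.F, n = 3) or with Siro (Bela.Siro.D14, n = 3; Bela.Siro.D30, n = 3; Bela.Siro.F, n = 2). FR104, an antibody fragment against CD28, was given alone (FR104.D14, n = 3; FR104.F, n = 3) or with Siro (FR104.Siro.D14, n = 4; FR104.Siro.F, n = 4). Autologous recipients, who got their own cells and no prophylaxis, were sampled at day 14 and day 36 (Auto.D14, n = 3; Auto.D36, n = 3). F marks a final sample whose day is not stated. The label FR104.Siro.D14 covers arrays of replicates 26 and 28 at day 14, replicate 29 at day 22 and replicate 27 at day 34. Replicates are named by animal number.

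Binding of type I interferon brings the kinases JAK1 and TYK2 at its receptor to phosphorylate STAT2. With IRF9 it is part of a complex that enters the nucleus and binds interferon stimulated response elements in front of the target genes. Many targets block viral replication, and others, such as IRF7 and the RNA sensors, feed back into interferon production. In T cells the same signal can restrain division or favour effector function, depending on when it arrives relative to antigen.

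The values are log2 probe set signals, and a difference of 1 is a doubling of signal. Levels of different probe sets are not set against each other. Differences, standard errors (SE) and adjusted p values come from limma with group and batch as terms and Benjamini-Hochberg adjustment over 11806 genes. A gene is said to have risen or fallen where the adjusted p was under 0.05. The 15 comparisons with Healthy.Control share the same 34 control arrays.

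Some features of the arrays bear on what follows. Spike-in signal was above the highest healthy control (11.27) in 8 arrays, among them all 4 of FR104.Siro.D14, Auto.D14 replicate 202 and FR104.D14 replicate 23. The log2 signal of the 3' actin control minus the 5' one ran from 0.4299 to 3.8302 in Healthy.Control. Every array of Auto.D36 (-0.3401 to -0.3028), FR104.D14 (0.0171 to 0.3727) and FR104.F (0.0946 to 0.4253) lay below that range. So did some arrays of Auto.D14, FR104.Siro.D14 and FR104.Siro.F. The part of this difference in the results was not tested. Of the T cell markers only CD5 and CD6 had a named probe set, so CD3 transcripts were not read here. Markers of monocytes, which a CD3 sort should remove, moved with most transplant groups: 2 or more of 8 rose in 12 of the 15, S100A8 and S100A9 in each of these, and none in Tac.Mtx.D30, Auto.D14 or Auto.D36. In NoRx.F 4 of the 8 rose, with a median log2 difference of 1.93, and their summed linear signal ran from 1271.1 to 22575.4, against 314.6 to 3203.7 in Healthy.Control. In Auto.D14 none of the 8 passed (median -0.02) while 7 interferon stimulated genes rose, and in Bela.Siro.D14 4 of 8 rose (median 2.48) while no interferon stimulated gene passed. Of 5 genes listed for plasmacytoid dendritic cells only IRF8 was tested, TCF4 having failed the filter on dim genes. IRF8 rose by 2.52 in NoRx.F, 2.19 in Siro.F and 2.17 in Bela.F and passed in no other group (0.70 in Auto.D14). A single gene does not give the level of these cells. In NoRx.F 1 of 4 natural killer cell markers, KLRF1, fell (median of the 4 -1.23), and so did the T cell marker CD5 (-0.44 ± 0.16). KLRF1 also fell in FR104.F (-3.16), FR104.Siro.D14 (-2.19) and FR104.Siro.F (-2.60), and CD5 in FR104.Siro.F (-0.515) and Auto.D36 (-0.52). CD6 fell in Siro.F (-0.69) and rose in Auto.D36 (1.19). The neutrophil marker LCN2 rose in Bela.F (2.27), FR104.D14 (1.95), FR104.F (1.71), FR104.Siro.D14 (1.36) and FR104.Siro.F (2.39). Other neutrophil markers did not pass in these groups. The part of these cells in the results was not tested. In such bulk RNA a change in the number of cells of a type and a change in RNA per cell cannot be told apart.

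As a score, the mean of the 30 genes in an array relative to the Healthy.Control mean, the mean of every transplant group lay above that of the controls. The score is a description and has no test. It was highest in Tac.Mtx.D30 (1.18 ± 0.23, SD, n = 2), FR104.D14 (0.94 ± 0.34, n = 3) and Tac.Mtx.F (0.91 ± 0.52, n = 3). NoRx.F reached 0.75 ± 0.31 (n = 4), Auto.D36 0.65 ± 0.28 and Auto.D14 0.63 ± 0.22 (n = 3 each), against 0.00 ± 0.18 in Healthy.Control (n = 34). The 6 groups that received Siro had the 6 lowest transplant means, down to 0.21 ± 0.01 in Bela.Siro.D14 (n = 3), 0.28 ± 0.21 in Siro.F (n = 4) and 0.29 ± 0.35 in FR104.Siro.D14 (n = 4). All 4 NoRx.F arrays lay above the highest Healthy.Control array (0.46), while none of the 4 Siro.F arrays did. Each transplant group differed from the next in order by less than the larger of their 2 SDs.

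**Figure D1:**
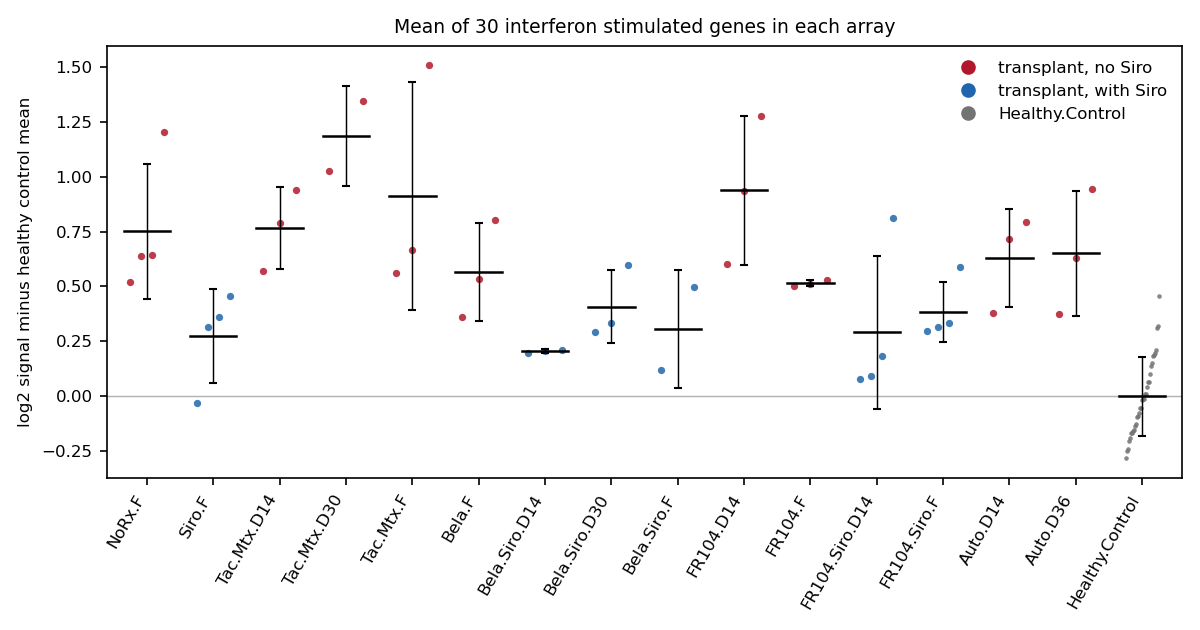
Mean log2 signal of the 30 interferon stimulated genes in each array, minus the Healthy.Control mean, by group. Points are arrays, the bar is the group mean and the whisker 1 SD. All 4 NoRx.F arrays lie above the highest healthy array (0.46), and all 3 Bela.Siro.D14 arrays lie near 0.21.

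Without prophylaxis the response was broad. In NoRx.F 19 of the 30 genes rose and 2 fell against Healthy.Control, where 20% of all genes tested rose and 15.4% fell, 35.4% in either direction. The median log2 difference of the 30 was 0.64, beside 0.05 for all genes. IFI27, a small mitochondrial and endoplasmic reticulum protein that is among the most inducible interferon targets, had 11.20, 10.79, 12.24 and 10.93 in NoRx.F, against 5.81, 7.21 and 9.82 as the lowest, median and highest Healthy.Control values. The 2 groups did not overlap, and IFI27 rose by 3.87 ± 0.49 on the log2 scale (adjusted p = 1.85e-09), which is 14.7-fold. ISG15, the ubiquitin-like modifier that interferon induces and that is attached to many proteins, had 10.29, 10.30, 11.12 and 9.86 in NoRx.F, against 7.33, 7.76 and 8.87 (lowest, median, highest) in Healthy.Control. It rose 5.7-fold (2.51 ± 0.30, adjusted p = 4.68e-10), again without overlap.

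By role, both Mx GTPases, which trap viral nucleocapsids, rose in NoRx.F. MX2 was higher by 1.52 ± 0.28 (adjusted p = 1.05e-05) and MX1 by 1.44 ± 0.37 (adjusted p = 0.0011). Of the 4 genes of the oligoadenylate synthetase (OAS) family, which make the second messenger that activates RNase L, 3 rose and OAS1 fell. OASL, a member without synthetase activity, had 7.61, 7.72, 8.74 and 8.58 in NoRx.F, against 5.65, 6.30 and 7.18 (lowest, median, highest) in Healthy.Control, a rise of 1.80 ± 0.28 (adjusted p = 3.27e-07). OAS2 rose by 1.39 ± 0.22 and OAS3 by 0.72 ± 0.23. Among the antiviral effectors CMPK2 (a mitochondrial nucleotide kinase), ISG20 (an exonuclease) and SAMD9L rose, and TRIM22 did not pass. The pair PARP9 and DTX3L, which act as a complex of an ADP-ribosyl binding protein and a ubiquitin ligase, rose by 0.58 ± 0.17 and 0.55 ± 0.18. IFI35 rose by 1.24 ± 0.15, EPSTI1 by 1.73 ± 0.30 and the secreted glycoprotein LGALS3BP by 1.24 ± 0.47.

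Not every gene of the group took part. HERC6, IFIT1B, IFIT2, IFI44, IFIH1, PARP12, TRIM22, STAT2 and the probe set used for IRF7 did not pass in NoRx.F, and IFI44 had a mean difference of -0.89 ± 0.44 (adjusted p = 0.11). DHX58, the LGP2 helicase that tunes the RNA sensors RIG-I and MDA5, fell. It had 9.79, 9.37, 9.65 and 9.74 in NoRx.F, all below the lowest Healthy.Control value, against 10.45, 11.07 and 11.55 (lowest, median, highest) in Healthy.Control. The difference was -1.40 ± 0.13 (adjusted p = 5.75e-14). Within batch 1, which holds 3 of the 4 NoRx.F arrays, 17 genes rose and 2 fell, and DDX58 and PARP14 no longer passed. Of all genes 30.4% passed there in either direction. The highest score in NoRx.F was that of replicate 52; without it 14 genes passed in either direction, and the 7 lost were DTX3L, IFIT3, LGALS3BP, OAS3, PARP9, PARP14 and XAF1.

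**Figure D2:**
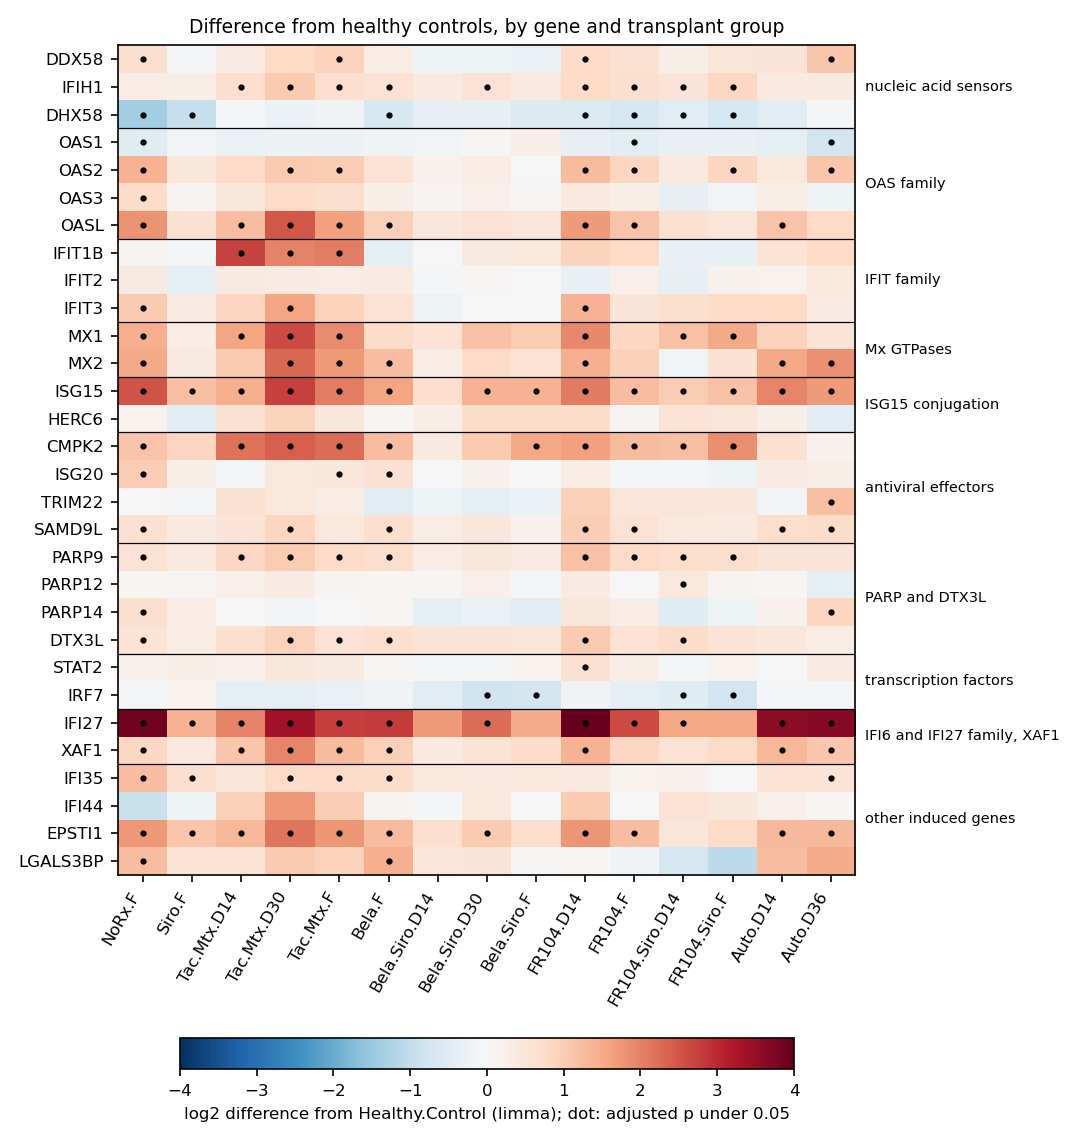
Log2 difference from Healthy.Control of each of the 30 genes (rows, ordered by role) in each of the 15 transplant groups (columns). Red is higher and blue lower, and dots mark an adjusted p under 0.05. IFI27 and ISG15 are red across the columns, and DHX58 is blue, darkest in NoRx.F (-1.40).

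Autologous recipients were transplanted without a foreign graft. In Auto.D14 7 genes rose and none fell, beside 2.47% of all genes higher and 1.92% lower (4.4% in all). IFI27 had 10.93, 12.26 and 9.81 in Auto.D14, against a highest Healthy.Control value of 9.82, and its rise of 3.59 ± 0.59 was 12-fold (adjusted p = 0.000127). ISG15 rose by 1.96 ± 0.36, MX2 by 1.56 ± 0.34, XAF1 by 1.32 ± 0.32 and EPSTI1 by 1.28 ± 0.35. Replicate 202 carries a high spike-in signal and the highest IFI27 and ISG15, and without it only IFI27 of the 30 passed. The loss was not limited to the 30. Without any high spike-in array 1 of the 30 passed in Auto.D14, beside 0.169% of all genes, where it had been 4.4%. In Auto.D36 11 genes rose and OAS1 fell (7.84% and 8.89% of all genes, 16.7% in all), with IFI27 at 11.78, 11.02 and 10.32, above every Healthy.Control array, and a rise of 3.63 ± 0.59 (adjusted p = 1.54e-05). Without replicate 201 the count of genes passing in Auto.D36 was 6.

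NoRx.F was also set directly against autologous day 14 samples. Of the 30, none was higher and DHX58 alone was lower in NoRx.F than in Auto.D14. Of all genes 1.9% were higher and 1.43% lower (3.33% in all), so the count was at the share of all genes. At an unadjusted p under 0.05 in limma there were 4 of the 30, beside 2000 of all 11806 genes. DHX58 was at 9.79, 9.37, 9.65 and 9.74 in NoRx.F, against 10.81, 10.40 and 10.59 in Auto.D14, with no overlap (-0.97 ± 0.20, adjusted p = 0.00293). IFI27 ran from 10.79 to 12.24 in NoRx.F and from 9.81 to 12.26 in Auto.D14, so these overlapped. With the animal as a block 3 genes passed (5.9% of all genes), IFI35 and ISG20 being higher in NoRx.F beside the lower DHX58. Those 2 were also higher without Auto.D14 replicate 202, and with OAS2, making 4, without NoRx.F replicate 53. The groups share no batch, so no within-batch value can be had.

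Under Tac.Mtx 10 genes rose at day 14, 16 at day 30 and 16 in the final samples, and none fell. The shares of all genes that rose were 1.4%, 2.85% and 10.7%, and of those that fell 0.0678%, 0.61% and 3.41%, or 1.47%, 3.46% and 14.1% in either direction. CMPK2 had 7.81, 6.79 and 6.49 in Tac.Mtx.D14, 7.15 and 7.39 in Tac.Mtx.D30 and 6.97, 8.28 and 6.06 in Tac.Mtx.F, against 4.15, 4.86 and 5.53 (lowest, median, highest) in Healthy.Control. Of the 8 monocyte markers only S100A8 and S100A9 passed in Tac.Mtx.D14 and Tac.Mtx.F, S100A9 being higher by 3.68 and 3.86. None of the 8 passed in Tac.Mtx.D30 (n = 2), where 16 of the 30 genes rose and S100A9 differed by 1.80 ± 1.06. The monocyte marker mean relative to Healthy.Control was 1.18 in replicate 19 there and -0.15 in replicate 20. The part of monocytes under Tac.Mtx was not tested. For CMPK2 every Tac.Mtx array was above every Healthy.Control array, with rises of 2.16 ± 0.35, 2.40 ± 0.42 and 2.23 ± 0.35. MX1 had 10.07 and 10.55 in Tac.Mtx.D30, against a highest Healthy.Control value of 8.73 (2.62 ± 0.47, adjusted p = 0.000446). MX2 had 9.49 and 10.02 there, against a highest Healthy.Control value of 8.32. These counts lean on single animals. Without replicate 20 they were 2 at day 14 and 4 in the final samples, without replicate 19 they were 5 at day 14 and 2 at day 30, and it was 9 at day 30 without replicate 20. The 1 array then left at day 30 is assumed to vary like the other groups. Within batch 3, which holds these arrays, 6, 14 and 16 passed, beside 0.449%, 1.63% and 10.5% of all genes.

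IFIT1B, a relative of the RNA-binding IFIT proteins, was highest under Tac.Mtx. It had 12.31, 7.59 and 7.93 in Tac.Mtx.D14, against 4.91, 6.57 and 8.46 (lowest, median, highest) in Healthy.Control, so that replicate 21 stood far above the others and the rest lay within the control range. Its rise of 2.71 ± 0.49 (adjusted p = 0.000758) became 1.19 and did not pass without replicate 21. That array also had the highest level of the erythroid markers ALAS2, AHSP and KLF1, which averaged 4.59 above the Healthy.Control mean on the log2 scale there. In Tac.Mtx.F replicate 21 they were 2.07 above with IFIT1B at 9.09, and in FR104.F replicate 24 2.54 above with IFIT1B at 8.91. All other transplant arrays had erythroid marker means below the highest Healthy.Control value of 1.06, among them Tac.Mtx.F replicate 20 and Tac.Mtx.D30 replicate 19, where IFIT1B was 9.22 and 8.90. The part of red cell precursors in these IFIT1B values was not tested.

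In Bela.F 14 genes rose and DHX58 fell, with 12.4% of all genes higher and 5.25% lower (17.6% in all). IFI27 had 10.18, 10.77 and 9.84, all above the highest Healthy.Control value of 9.82 (2.81 ± 0.53, adjusted p = 6.95e-05), and LGALS3BP had 9.56, 9.06 and 9.05, against a highest Healthy.Control value of 8.86 (1.46 ± 0.51, adjusted p = 0.0334). Monocyte markers were high in the same group, 4 of 8 rising and 1 falling with a median of 2.24, IRF8 rose by 2.17, and their part was not tested. Without replicate 47 the count of genes passing was 4, and without replicate 46 it was 9.

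In FR104.D14 16 genes rose and DHX58 fell, with 2.58% of all genes higher and 2.8% lower (5.39% in all). The median of the 30 genes, 0.93, lay beside -0.01 for all genes. IFI27 had 10.79, 11.86 and 11.56 in FR104.D14, none overlapping Healthy.Control, and its rise of 3.99 ± 0.59 (15.9-fold, adjusted p = 9.57e-06) was the highest of any group. Of the monocyte markers S100A8 and S100A9 rose as well, by 4.00 and 4.72. CD14, CSF1R and CD68 had negative differences (-0.43, -0.68 and -1.37) and LYZ, VCAN and FCN1 positive ones, none passing. STAT2, a subunit of the complex that reads the interferon signal, passed in no other group. It had 6.66, 7.08 and 7.19 in FR104.D14, against 5.97, 6.41 and 6.69 (lowest, median, highest) in Healthy.Control (0.59 ± 0.15, adjusted p = 0.0105). Its difference was not past the threshold without replicate 22 or replicate 23. In FR104.F 9 genes rose and 2 fell (5.39% and 5.28% of all genes, 10.7% in all), IFI27 at 9.99, 9.87 and 10.20 among the risen. CMPK2 had 6.21, 5.94 and 6.21 and EPSTI1 8.27, 7.63 and 7.65 in FR104.F, all above the highest Healthy.Control values of 5.53 and 7.62. The count passing was 9 in FR104.D14 without replicate 22, and in FR104.F it was 2 without replicate 22 and 4 without replicate 23.

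Of the 30 genes between 0 and 8 rose in the groups that received Siro, and between 7 and 19 in the others. Of all 11806 genes between 221 and 1006 rose in the groups with Siro, and between 165 and 2361 in the others. In Siro.F 4 rose and 1 fell, where 8.27% of all genes rose and 6.34% fell (14.6% in all), so the share of the 30 that rose was close to that of all genes. ISG15 had 9.36, 8.26, 9.32 and 9.43 in Siro.F, against a highest Healthy.Control value of 8.87, and only replicate 16 lay within the control range (1.21 ± 0.29, adjusted p = 0.00211). IFI27 had 8.88, 7.88, 8.90 and 9.63, all within the Healthy.Control range of 5.81 to 9.82, though its mean rose (1.40 ± 0.47, adjusted p = 0.0345). EPSTI1, at 8.02, 7.199, 7.45 and 8.18 in Siro.F against 5.54, 6.58 and 7.62 (lowest, median, highest) in Healthy.Control, rose by 1.12 ± 0.28. IFI35 also rose, and DHX58 fell (10.14 ± 0.27 in Siro.F, SD, n = 4, and 11.05 ± 0.21 in Healthy.Control, n = 34). S100A8, S100A9 and IRF8 rose by 2.93, 3.05 and 2.19 in Siro.F. The other monocyte markers did not pass, CD68 alone among them having a negative difference (-0.50). The count of the 30 genes was 3 without replicate 18. Within batch 1 only DHX58 passed, beside 2.47% of all genes. Within batch 2 6 genes rose and 1 fell, beside 10.8% of all genes in either direction.

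Under Bela.Siro no gene passed at day 14, where 1.99% of all genes rose and 0.525% fell (2.52% in all). At an unadjusted p under 0.05 in limma there were 8 of the 30, beside 2225 of all 11806 genes. IFI27 came nearest to passing (1.70 ± 0.53, adjusted p = 0.0677). At day 30 IFI27, ISG15, EPSTI1 and the MDA5 sensor IFIH1 rose and the IRF7 probe set fell (4.23% of all genes higher, 2.95% lower, 7.17% in all). In Bela.Siro.F CMPK2 and ISG15 rose and the same IRF7 probe set fell (1.87% and 0.966% of all genes, 2.84% in all). Leaving out replicate 38, 42 or 49 of Bela.Siro.D30 gave 3 genes. In Bela.Siro.F the count was 1 without replicate 38 and 0 without replicate 42, where the lone array left is assumed to vary like the other groups.

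In FR104.Siro.D14 8 genes rose and 2 fell (8.52% and 9.68% of all genes, 18.2% in all), and in FR104.Siro.F 6 rose and 2 fell (2.91% and 7.15%, 10.1% in all). MX1 had 10.10, 8.52, 8.36 and 8.44 in FR104.Siro.D14, against 6.61, 7.82 and 8.73 (lowest, median, highest) in Healthy.Control, so replicate 26 alone was above the control range. CMPK2 was likewise highest in this array, with 7.15 in replicate 26 and 5.65, 5.71 and 5.64 in the others. Without replicate 26 3 of the 30 passed and without replicate 29 5 passed. With only the day 14 arrays 3 passed, beside 4.04% of all genes. All 4 FR104.Siro.D14 arrays have high spike-in signal, so no count without such arrays can be had. Of the monocyte markers S100A8 and S100A9 alone rose, S100A9 by 3.35 in FR104.Siro.D14 and by 4.57 in FR104.Siro.F. In FR104.Siro.D14 CD14, LYZ, CSF1R, VCAN, FCN1 and CD68 had negative differences, none passing. In FR104.Siro.F CD14 and CSF1R had negative differences (-0.36 and -0.43) and LYZ, VCAN, FCN1 and CD68 positive ones, none passing. In FR104.Siro.F every CMPK2 value (6.56, 7.42, 6.59 and 6.23) and every MX1 value (8.89, 9.92, 8.78 and 9.26) was above the Healthy.Control maximum, at 1.85 ± 0.36 (adjusted p = 0.000329) and 1.52 ± 0.40 (adjusted p = 0.00818). IFI27 in the same arrays spread over 7.96, 10.36, 9.29 and 8.23 and did not pass (1.55 ± 0.54, adjusted p = 0.0518).

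**Figure D3:**
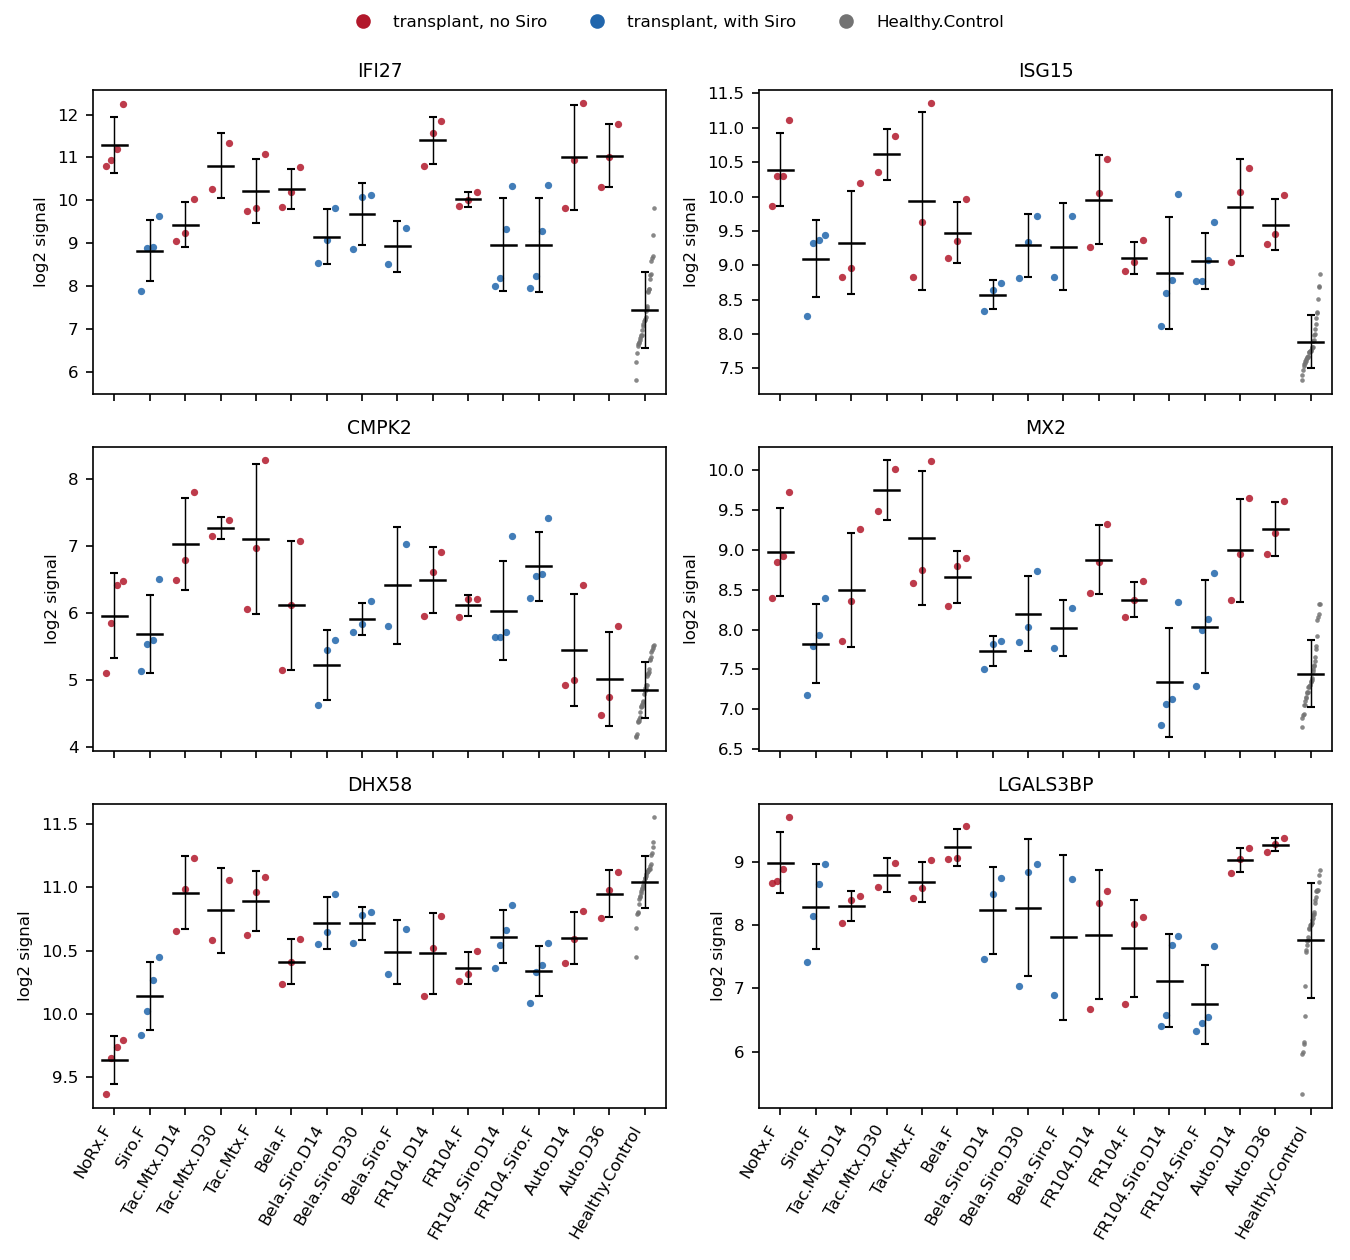
Log2 signal of IFI27, ISG15, CMPK2, MX2, DHX58 and LGALS3BP in every array, by group. Points are arrays, bars are means and whiskers 1 SD. IFI27 in NoRx.F lies between 10.79 and 12.24, and in Siro.F between 7.88 and 9.63. DHX58 lies lowest in NoRx.F, and the group mean of LGALS3BP is lowest in FR104.Siro.F.

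Final samples under each prophylaxis were compared with NoRx.F, to ask which of these genes differ when graft-versus-host disease prophylaxis is given. In Siro.F 8 genes were lower and DHX58 was higher than in NoRx.F, with 6.68% of all genes lower and 5.39% higher (12.1% in all). IFI27 had 8.88, 7.88, 8.90 and 9.63 in Siro.F, against 11.20, 10.79, 12.24 and 10.93 in NoRx.F, with no overlap (-2.48 ± 0.60, adjusted p = 0.00272). ISG15, MX2, OASL and OAS2 were lower too, with differences of -1.30 ± 0.37, -1.15 ± 0.34, -1.19 ± 0.34 and -0.94 ± 0.27. ISG20 differed by -0.78 ± 0.18 (adjusted p = 0.00192), IFI35 by -0.60 ± 0.18 and DDX58 by -0.70 ± 0.24. Without NoRx.F replicate 52 the count passing was 2 and without Siro.F replicate 16 it was 3. IFI27 and ISG20 were lower in both of these. Within batch 1 10 genes were lower and none higher, where 11.3% of all genes passed in either direction.

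In FR104.Siro.F 7 genes were lower and DHX58 was higher than in NoRx.F (13.1% of all genes lower, 6.55% higher, 19.6% in all). IFI27 differed by -2.32 ± 0.73 (adjusted p = 0.0169), LGALS3BP by -2.27 ± 0.69, IFI35 by -1.24 ± 0.21 (adjusted p = 2.05e-05) and ISG20 by -1.20 ± 0.22. LGALS3BP had 6.32, 6.54, 7.66 and 6.45 in FR104.Siro.F, against 8.69, 8.88, 9.70 and 8.67 in NoRx.F, without overlap. Healthy animals alone ranged from 5.33 to 8.86 for this gene. Replicate 28, at 6.45 in FR104.Siro.F, had 5.33 in its own healthy array, and replicate 53, at 8.67 in NoRx.F, had 7.76. How far differences between animals account for the separation was not tested. IRF8, the only gene tested of the plasmacytoid list, differed by -2.79 in the same direction. In Siro.F IRF8 differed from NoRx.F by -0.33 and did not pass. A single gene does not give the level of these cells, and their part was not tested. In Bela.Siro.F IFI35, ISG20, OAS2 and PARP14 were lower and DHX58 and the OAS1 probe set higher (3.53% of all genes lower, 4.22% higher, 7.75% in all), and without Bela.Siro.F replicate 42 only 1 gene passed. In FR104.F ISG20 and IFI35 were lower and DHX58 higher (4.13% and 3.54%, 7.67% in all). In Tac.Mtx.F and Bela.F DHX58 alone was higher and none was lower (4.7% and 1.67% of all genes higher, 2.24% and 0.195% lower, 6.95% and 1.86% in all). With the animal as a block IFI44 was higher in Tac.Mtx.F too, and likewise without NoRx.F replicate 52 or Tac.Mtx.F replicate 21; without Tac.Mtx.F replicate 19 IFIT1B was. Without NoRx.F replicate 51 or Bela.F replicate 57 DHX58 did not pass in Bela.F. Groups other than Siro.F share no batch with NoRx.F, so no within-batch value can be had for them.

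The difference of DHX58 from NoRx.F was 0.49 ± 0.16 in Siro.F, 0.71 ± 0.19 in FR104.Siro.F, 0.73 ± 0.20 in FR104.F, 0.77 ± 0.19 in Bela.F, 0.85 ± 0.21 in Bela.Siro.F and 1.25 ± 0.19 in Tac.Mtx.F, all past the threshold. In Siro.F it did not pass within batch 1 or without NoRx.F replicate 51 or 52 or Siro.F replicate 16 or 18. In Bela.Siro.F it did not pass without replicate 42 and in FR104.F without replicate 22, as in Bela.F without the arrays named above. The 6 comparisons share the 4 NoRx.F arrays.

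Siro added to a CD28 agent was compared within the same agent. At the early time 5 genes were lower in FR104.Siro.D14 than in FR104.D14 and none higher, beside 2.96% of all genes lower and 1.49% higher (4.46% in all). IFI27 had 10.33, 9.33, 8.01 and 8.18 in FR104.Siro.D14, against 10.79, 11.86 and 11.56 in FR104.D14, with no overlap (-2.44 ± 0.64, adjusted p = 0.0164). MX2 had 8.34, 7.07, 6.80 and 7.13 in FR104.Siro.D14, against 8.46, 9.33 and 8.85 in FR104.D14, again apart (-1.54 ± 0.36, adjusted p = 0.00847). EPSTI1, PARP14 and STAT2 differed by -1.29 ± 0.38, -0.95 ± 0.28 and -0.67 ± 0.16. The count was 0 with only the day 14 arrays of FR104.Siro.D14, where 0.5% of all genes passed, and 0 without FR104.D14 replicate 22. It was 3 without FR104.D14 replicate 23, 3 without FR104.Siro.D14 replicate 29, 2 without replicate 27 and 9 without replicate 26. Within batch 4 it was 3, beside 1.71% of all genes. High spike-in signal, present in 4 of 4 arrays of FR104.Siro.D14 and 1 of 3 of FR104.D14, cannot be told apart from the treatment here.

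In final samples with and without Siro none of the 30 genes differed past the threshold. FR104.Siro.F against FR104.F had 1 of the 30 with an unadjusted p under 0.05 in limma, beside 876 of all 11806 genes. After adjustment 0.00847% of all genes were higher and 0% lower. Bela.Siro.F against Bela.F had 4 of the 30 at an unadjusted p under 0.05, beside 1071 of all 11806 genes. After adjustment 0.186% of all genes were higher there and 0.271% lower, 0.457% in all. IFI27 averaged 8.96 ± 1.10 in FR104.Siro.F (SD, n = 4) and 10.02 ± 0.17 in FR104.F (SD, n = 3), a difference of -1.06 ± 0.64 (adjusted p = 0.721). It averaged 8.92 ± 0.59 in Bela.Siro.F (n = 2) and 10.26 ± 0.47 in Bela.F (n = 3), a difference of -1.34 ± 0.76 (adjusted p = 0.654). The OAS1 probe set was higher in Bela.Siro.F without replicate 38. A test of whether the added effect differed between FR104 and Bela passed for none of the 30. After adjustment 0.00847% of all genes were higher and 0.0169% lower (0.0254% in all). At an unadjusted p under 0.05 in limma there was 1 of the 30, beside 389 of all 11806 genes.

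**Figure D4:**
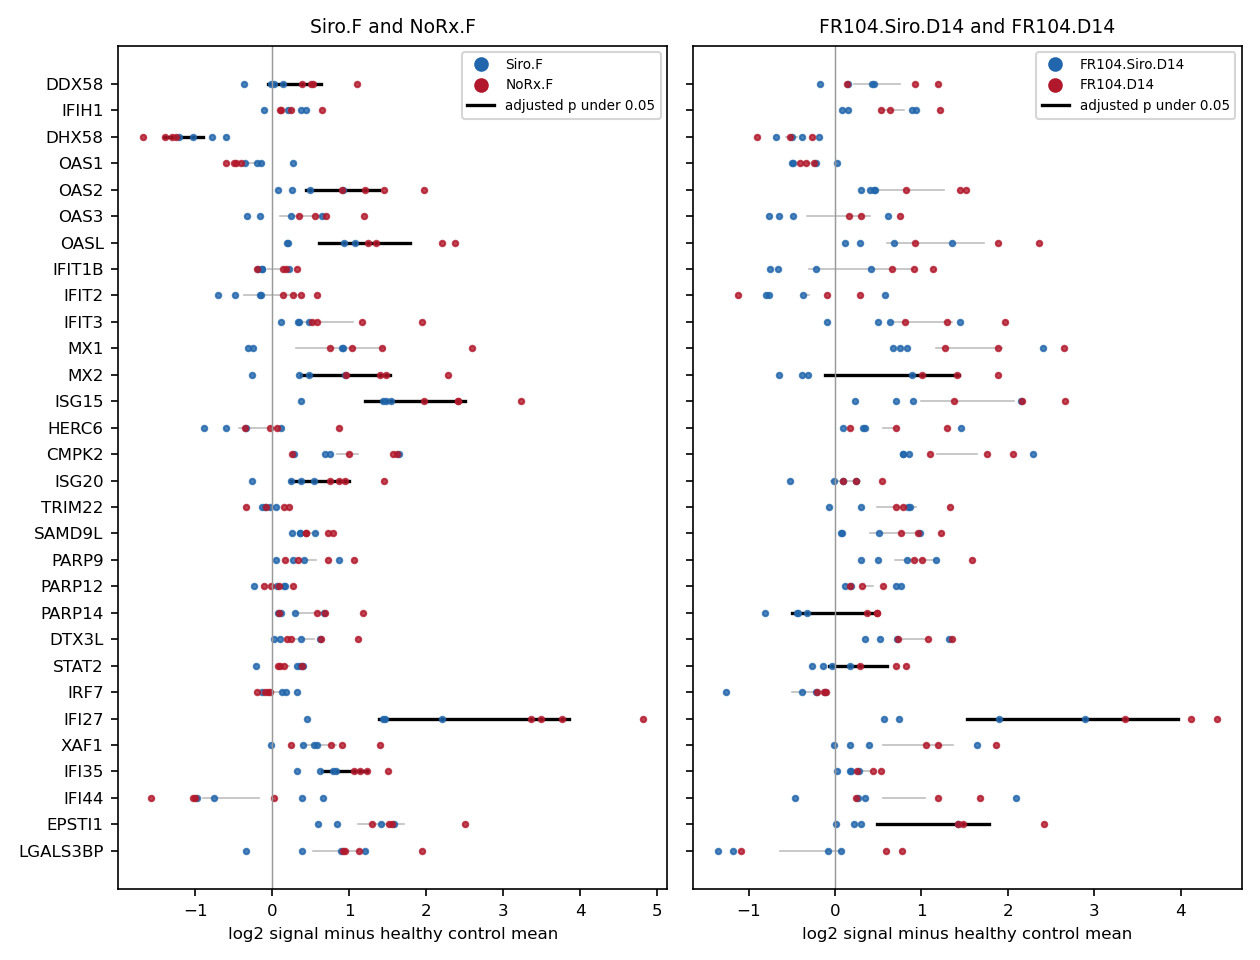
Log2 signal minus the Healthy.Control mean of the 30 genes, in Siro.F and NoRx.F (left) and in FR104.Siro.D14 and FR104.D14 (right). Points are arrays, and lines join the means of the arrays of each group, black where the limma adjusted p was under 0.05. Lines of IFI27 and MX2 are black in both panels.

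Later samples were compared with earlier ones of the same treatment and the same animals. In the main fit, which does not pair them, no gene of the 30 passed in any of the 5 comparisons. With the animal as a block 1 passed in Auto.D36 against Auto.D14, beside 2.87% of all genes. In FR104.Siro.F against FR104.Siro.D14 0 passed with the block, beside 8.53% of all genes. In FR104.F against FR104.D14, where 0% of all genes passed in either direction, 29 of the 30 genes had a negative difference, with a median of -0.38. At an unadjusted p under 0.05 in limma there were 5 of the 30, beside 340 of all 11806 genes. IFI27 differed by -1.38 ± 0.68 and MX1 by -1.10 ± 0.51, both with an adjusted p of 1. In FR104.Siro.F against FR104.Siro.D14 2 of the 30 had an unadjusted p under 0.05, beside 2414 of all 11806 genes. After adjustment 1.68% of all genes were higher there and 1.42% lower (3.1% in all). A test of the difference between these changes over time passed for no gene. At an unadjusted p under 0.05 in limma there were 4 of the 30, beside 315 of all 11806 genes. Counts at an unadjusted p under 0.05 were 2 in Tac.Mtx.F against Tac.Mtx.D14, 0 in Bela.Siro.D30 against Bela.Siro.D14 and 7 in Auto.D36 against Auto.D14. Of all 11806 genes 516, 258 and 1338 reached it in these comparisons. After adjustment 0%, 0.00847% and 0.974% of all genes passed. In the autologous recipients TRIM22, a ubiquitin ligase with antiviral activity, differed by 1.30 ± 0.39 (adjusted p = 0.0811) and passed with the animal as a block. Without Auto.D14 replicate 200 TRIM22 was higher and PARP12 lower.

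Across the 15 groups ISG15 rose in 14, IFI27 in 12, EPSTI1 in 11 and CMPK2 in 10, while IFIH1 and PARP9 rose in 9 each. OASL and XAF1 rose in 8, and MX1, MX2, OAS2 and SAMD9L in 7. At the other end IFIT2, HERC6 and IFI44 rose in no group, and OAS3, TRIM22, PARP12 and STAT2 in 1 each. For IFIT2 and TRIM22 this is the probe set used. Some other IFIT2 probe sets rose in 1 group each and another fell in 1, and the other TRIM22 probe set rose in 2. ISG20 rose in NoRx.F, Bela.F and Tac.Mtx.F, with the highest difference in NoRx.F (1.01 ± 0.15), whereas IFI44 had its lowest difference in NoRx.F (-0.89) and its highest in Tac.Mtx.D30 (1.74 ± 0.56, adjusted p = 0.0642). CMPK2 averaged 5.01 ± 0.70 in Auto.D36 (SD, n = 3), and only replicate 201 (5.80) was above the Healthy.Control range, whose mean was 4.86 ± 0.42, while MX2 in the same arrays had 9.62, 8.96 and 9.22, all above the Healthy.Control maximum of 8.32. LGALS3BP varied widely among healthy animals, between 5.33 and 8.86. DHX58 rose in no group and fell in 7, NoRx.F, Siro.F, Bela.F, FR104.D14, FR104.F, FR104.Siro.D14 and FR104.Siro.F.

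For IRF7 and OAS1 the direction depends on the probe set. IRF7, the factor that amplifies interferon production, has 2 probe sets, and the brighter was used. That probe set fell in Bela.Siro.D30, Bela.Siro.F, FR104.Siro.D14 and FR104.Siro.F, while the other rose in 12 of 15 groups, with differences between 0.53 and 1.71. The probe set used had 8.73, 8.78, 8.76 and 8.66 in FR104.Siro.F, against 8.88, 9.54 and 9.85 (lowest, median, highest) in Healthy.Control, with no overlap. In FR104.Siro.F the 2 probe sets gave -0.77 ± 0.16 and 0.71 ± 0.23, both past the threshold, and opposite calls were also made in Bela.Siro.D30 and FR104.Siro.D14. In NoRx.F the probe set used gave -0.08 ± 0.15 and the other 1.08 ± 0.21. OAS1 has 5 probe sets. The one used had 10.46, 10.37, 10.50 and 10.56 in NoRx.F and 10.35, 9.94 and 10.41 in Auto.D36, all below the lowest Healthy.Control value of 10.57. It fell in NoRx.F (-0.49 ± 0.12), where the others included rises of 1.42 ± 0.24 and 1.10 ± 0.20, and in Auto.D36 (-0.73 ± 0.14), where another rose by 1.03 ± 0.24. The direction of IRF7 and OAS1 as genes is therefore not settled by these arrays. The 2 probe sets of MX2 moved alike, rising in 7 and 8 groups, and so did those of OAS2, in 7 and 6. Other genes differed in how many groups passed. The SAMD9L probe set used rose in 7 groups and another in 1. For XAF1 these numbers were 8 and 4, and for PARP14 2 and 0. DHX58 has a single probe set, so its fall has no such check.

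**Figure D5:**
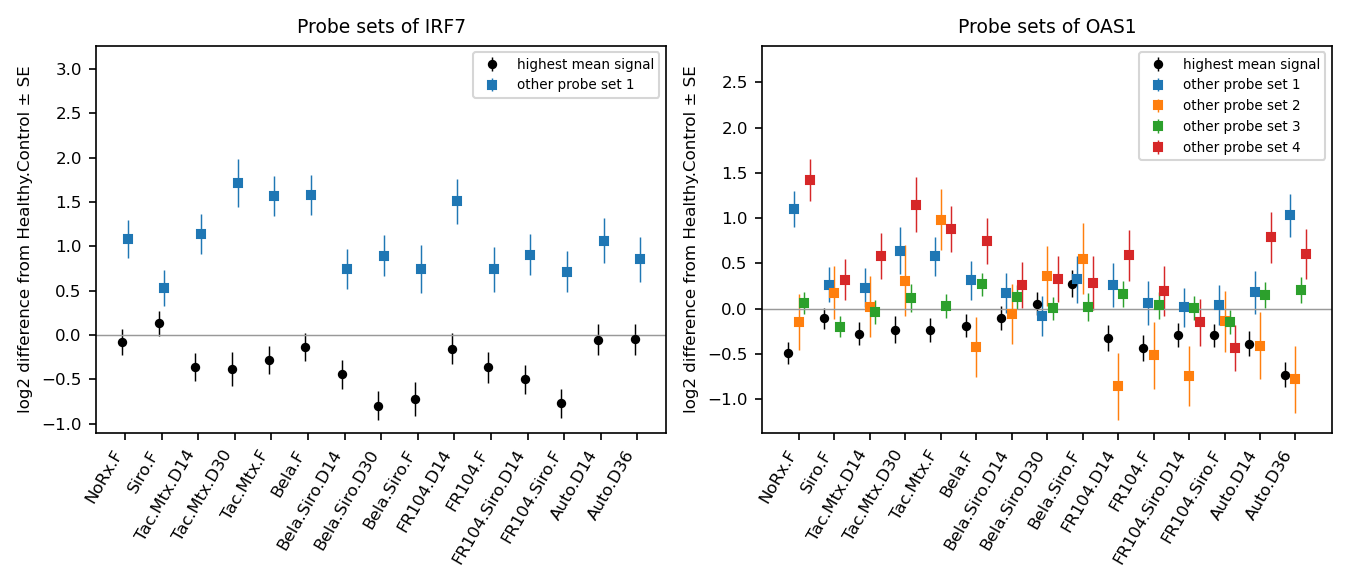
Log2 difference from Healthy.Control (whiskers 1 SE) of each probe set of IRF7 (left) and OAS1 (right) in the 15 transplant groups. The probe set with the highest mean signal, which was used, is black. For IRF7 the other probe set lies above 0.5 in every group while the one used lies at or below 0.13.

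In 11 animals a healthy array and 1 or more transplant arrays were measured, 17 transplant arrays in all. The score was higher in the transplant array than in the animal's own healthy array in 17 of 17, and so was IFI27. ISG15 was higher in 16 of 17, the exception being FR104.Siro.D14 replicate 28 (-0.03), and DHX58 was lower in 16 of 17, the exception being Auto.D36 replicate 200 (0.05). Against its own healthy array NoRx.F replicate 53 differed by 0.60 in score, 3.07 in IFI27 and -1.40 in DHX58. Siro.F replicates 13, 16 and 18 differed by 0.41, 0.22 and 0.53 in score, and FR104.D14 replicate 22 by 1.45. Among the autologous animals replicate 202 differed by 0.84 in Auto.D14 and 0.50 in Auto.D36, replicate 200 by 0.27 and 0.53, and replicate 201 by 0.34 and 0.48. No test was made on these, and the arrays are among those tested above.

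Other genes of the interferon pathway were listed beside the 30. Where 20% of all genes rose and 15.4% fell, of 21 further type I targets 12 rose and 2 fell in NoRx.F, among them PLSCR1, a membrane protein that hinders virus entry (2.27 ± 0.33, adjusted p = 5.66e-08), UBE2L6, the enzyme that carries ISG15 to its substrates (1.14 ± 0.13, adjusted p = 7.36e-11), and BST2, the tetherin that holds budding virions (0.80 ± 0.15, adjusted p = 1.54e-05). Against NoRx.F 3 of these 21 were lower in Siro.F and 4 in FR104.Siro.F, beside 789 and 1546 of all 11806 genes. BST2 was lower in both (-0.73 ± 0.18 and -0.74 ± 0.22). UBE2L6 was lower in FR104.Siro.F (-0.72 ± 0.19, adjusted p = 0.00413). Of 14 targets of type II interferon 7 rose in NoRx.F, including the immunoproteasome subunits PSMB10 (1.503 ± 0.15) and PSMB8 (0.78 ± 0.19) and the tryptophan-degrading enzyme IDO1 (1.89 ± 0.47), and IRF1 fell (-0.45 ± 0.17), against the same shares of all genes. PSMB10 was lower than in NoRx.F in both Siro.F (-0.84 ± 0.18) and FR104.Siro.F (-1.17 ± 0.22). In Auto.D36 8 of the 14 rose (7.84% of all genes), and in FR104.Siro.F none rose and 1 fell (2.91% and 7.15% of all genes). Many genes of this list answer to both interferons. Of 10 receptor and signalling genes 1 rose and 2 fell in NoRx.F, a share near the 35.4% of all genes that passed. The kinase JAK2 rose by 0.60 ± 0.18, the receptor chain IFNAR2 differed by -0.65 ± 0.22 and PIAS1, a SUMO ligase, by -0.95 ± 0.14 (adjusted p = 9.9e-08). PIAS1 was higher than in NoRx.F in both Siro.F (0.65 ± 0.17) and FR104.Siro.F (0.89 ± 0.21). In FR104.Siro.F SOCS3 (1.95 ± 0.35, adjusted p = 4.42e-05) and IFNAR2 (1.07 ± 0.32) were higher than in NoRx.F too. SOCS3 did not pass in NoRx.F against Healthy.Control (-0.06 ± 0.24). It rose in Auto.D36 and in every Bela.Siro and FR104 group, with or without Siro, most in FR104.Siro.F (1.89 ± 0.26).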

How the data were processed

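RNA of sorted CD3 T cells was measured on 81 arrays. The deposited log2 values were made by the authors with RMA in affy, per the submitters' processing notes, which give no versions. They ran from 1.52 to 16.67. Healthy control means were nearly equal between batches: 61.02% of probe sets had an F test p over 0.95, against 5% without any adjustment. The values thus appear to have been adjusted for batch, by a method not given in the sources used here, and spreads may be too small. The number of arrays limits precision.

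Of the probe sets, 24969 carry 1 gene name, 361 several and 27535 none. Per gene the probe set with the highest mean was kept (14132 genes), and 11806 were tested, those over 4.65 (the 40th percentile) in 2 or more arrays. The test was limma 3.58.1 and statmod 1.5.0 in R 4.3.3: lmFit for group and batch with 62 residual degrees of freedom and trended eBayes, 2-sided. The script was tested on simulated data. Members and lists were chosen with earlier results of these data known, so no p is given for the score or over the members. The rule for values in every array took the 3 members with the largest differences past the threshold in each main comparison, the members IFI27, ISG15, MX1, OAS1, STAT2 and IRF7, and any member called against the common direction. Other values were chosen after they were seen. From the other pathway lists up to 4 genes per comparison were named by adjusted p, or after their values were seen.

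Alternatives were no batch term, the animal as a random block (correlation 0.194), no filter, the mean of probe sets, renewed quantile normalization, single batches, day 14 arrays alone, no high spike-in arrays and each transplant array left out. Testing each probe set on its own was added after the data were seen. Replicate numbers are animals and so pair the samples: after removal of group means, correlations of the same animal were 0.21 to 0.66 in 16 later and earlier pairs and -0.19 to 0.34 in 17 pairs with its healthy array. Arrays of different animals are separate samples. No sequence is shown.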

Additional observations from a re-analysis of the deposited data

Results flagged for a closer look

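Of 124 combinations of gene or score with a group of 4 arrays, 8 held an array far from the other 3 by Dixon's criterion, which chance meets in about 1 of 20. The number flagged was thus close to that share, and some of the flags fall on the same array. FR104.Siro.D14 replicate 26 had a score of 0.81 where the others had 0.08 to 0.18, MX1 at 10.10 where the others had 8.36 to 8.52, and CMPK2 at 7.15 where the others had 5.64 to 5.71. The same animal had a score of 0.59 in FR104.Siro.F, where the others had 0.30 to 0.33. Its monocyte marker mean was 0.96 above Healthy.Control in FR104.Siro.D14 and 1.86 above in FR104.Siro.F, where replicate 27 also had 1.86. Its platelet marker mean was 1.68 above Healthy.Control in FR104.Siro.D14, where the others had -0.67 to 0.37 and the highest healthy array 1.14. The part of these cells was not tested. In Siro.F ISG15 was low in replicate 16 at 8.26 (others 9.32 to 9.43), STAT2 was low in replicate 18 at 6.16 (others 6.70 to 6.77) and IFIT1B was high in replicate 17 at 6.79 (others 6.38 to 6.45). LGALS3BP was high in FR104.Siro.F replicate 29 at 7.66 (others 6.32 to 6.54).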

How the results depend on the processing

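Counts are of genes passing in either direction. Against Healthy.Control, without a batch term the count was 8 in Siro.F (5 with it), 1 in Bela.Siro.D14 (0), 9 in Bela.Siro.D30 (5), 15 in FR104.Siro.F (8) and 11 in Auto.D14 (7). Against NoRx.F it was 5 in Tac.Mtx.F (1), 10 in Bela.Siro.F (6) and 14 in FR104.Siro.F (8), and NoRx.F against Auto.D14 gave 4 (1). Within single batches it was 1 in Siro.F (batch 1, 2.47% of all genes), 6 in Tac.Mtx.D14 (0.449%) and 1 in Bela.Siro.F (1.23%). It was 4 in FR104.Siro.D14 (10%) and 3 in FR104.Siro.D14 against FR104.D14 (1.71%). Day 14 arrays alone gave 3 in FR104.Siro.D14 against Healthy.Control (4.04% of all genes) and 0 against FR104.D14 (0.5%). Without high spike-in arrays it was 1 in Auto.D14 (0.169% of all genes) and 3 in NoRx.F against Auto.D14 (4.12%), leaving aside Bela.Siro.F, which then has 1 array. With the animal as a replicate block it was 2 in Tac.Mtx.F against NoRx.F (7.31% of all genes) and 3 in NoRx.F against Auto.D14 (5.9%). It was 1 in Auto.D36 against Auto.D14 (2.87%), and no other count moved by over 1.5 times under this pairing. Of single genes 20 calls were gained and 2 lost among 960. Auto.D36 against Auto.D14 also gave 1 with the mean of probe sets and 1 with every probe set tested on its own. The score of Bela.Siro.D14 (0.21) was 0.19 as a median over members and 0.23 with the mean of probe sets, and that of FR104.F (0.51) was 0.49 after quantile normalization.

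Leaving out 1 transplant array at a time, counts against Healthy.Control ran from 14 to 21 in NoRx.F, 3 to 6 in Siro.F, 2 to 8 in Tac.Mtx.D14, 2 to 9 in Tac.Mtx.D30, 4 to 18 in Tac.Mtx.F, 4 to 15 in Bela.F, 3 to 3 in Bela.Siro.D30, 0 to 1 in Bela.Siro.F, 9 to 17 in FR104.D14, 2 to 8 in FR104.F, 3 to 10 in FR104.Siro.D14, 7 to 8 in FR104.Siro.F, 1 to 8 in Auto.D14 and 6 to 13 in Auto.D36. Against NoRx.F they ran from 2 to 8 in Siro.F, 1 to 2 in Tac.Mtx.F, 0 to 1 in Bela.F, 1 to 7 in Bela.Siro.F, 2 to 4 in FR104.F and 6 to 10 in FR104.Siro.F. NoRx.F against Auto.D14 gave 1 to 4, FR104.Siro.D14 against FR104.D14 0 to 9, Bela.Siro.F against Bela.F 0 to 1 and Auto.D36 against Auto.D14 0 to 2. In the other comparisons the count was 0 throughout.

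With the mean of probe sets the sign turned for IRF7 against Healthy.Control in NoRx.F (0.50), Tac.Mtx.D30 (0.67), Tac.Mtx.F (0.65), Bela.F (0.72), Bela.Siro.D30 (0.0508), Bela.Siro.F (0.0103), FR104.D14 (0.68), FR104.Siro.D14 (0.20) and Auto.D14 (0.51). It turned for OAS1 in NoRx.F (0.39), Tac.Mtx.F (0.45) and Auto.D36 (0.0662) against Healthy.Control, and in Bela.Siro.F (-0.10) and FR104.Siro.F (-0.59) against NoRx.F. Probe sets that differ in direction are averaged here by construction; for the other changes the cause was not tested. Under the alternatives run no other gene that passed in either fit turned sign. No fit within a batch could be had where groups share none, and none without high spike-in arrays for FR104.Siro.D14. The promoter motif search was not run. With 2 to 4 arrays a group, a gene not passing is not shown to be unchanged.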

Other observations

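Healthy animal 201 had the highest healthy score (0.46), and its Auto.D14 and Auto.D36 arrays had scores of 0.79 and 0.94. Under Tac.Mtx replicate 20 had the highest score at day 14 (0.94) and in the final samples (1.51), where its platelet marker mean, 2.06 above Healthy.Control, was also the highest of the transplant arrays, its part not tested. At day 30 replicate 19 did (1.34, with 1.02 in replicate 20).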
